A study of Mus musculus with 84 samples.

Results

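The genes described here encode enzymes that place, remove or work beside acetyl groups on histones. The members were Ep300, Crebbp, Kat2a and Kat2b, which write acetyl marks, Hdac1, Hdac2, Hdac3 and Sirt1, which erase them, and Kdm1a, taken by gene symbol from a count table of mouse colon RNA. All 9 symbols were found among the 25494 genes of the table, and all 9 passed the filter on low counts that left 15893 genes to test. For each gene, peaks of H3K27ac, H3K4me1 and the transcription factor HNF4a were taken where they overlapped the gene's position in the table extended by 10 kb on either side. The set was proposed as writers, readers and erasers. None of its members is a reader and nothing else, although p300, CBP and the KAT2 enzymes carry a bromodomain, and Kdm1a removes methyl rather than acetyl groups.

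The libraries came from the colon of C57BL/6 mice. Males and females kept on a high-fat diet (HFD) or a low-fat diet (LFD) gave H3K27ac and H3K4me1 peak lists, with 3 libraries for each diet, sex and mark, and males of each diet gave 2 HNF4a lists. Germ-free males received gut bacteria of male donors that had eaten HFD (HFB) or LFD (LFB) and were then fed either diet, so that HFDHFB names a recipient fed HFD with bacteria of HFD-fed donors, and likewise HFDLFB, LFDHFB and LFDLFB. Each of these recipient groups gave 3 RNA libraries and 3 H3K27ac lists, except HFDHFB with 2 lists. RNA was thus analysed here in recipients alone and H3K4me1 and HNF4a in the other mice alone.

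RNA totals ran from 39904191 to 48026846 counts per library. The samples are labelled as colon epithelium, and the study's methods describe chromatin from epithelium loosened with EDTA but RNA from cells scraped off the colon. The summed level of 8 epithelial markers ran from 10864 to 15199 CPM, the counts of a gene scaled by the size of its library, and markers of other tissue were present in every library. The sum of 8 smooth muscle markers ran from 1071 to 7129 CPM, and the library HFDLFB 2 held the highest sums of mesothelium (554 CPM against a lowest of 53.8), adipocyte (1989 against 24.6), fibroblast (1405 against 318) and leukocyte markers (430 against 168). None of the markers in these lists was at 0 in all libraries. In such bulk samples fewer cells of a type and less RNA per cell cannot be told apart. The study calls its replicates biological, but the labels do not tie libraries to animals, and p-values measure the spread between these libraries.

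Acetyl groups on lysines of histone tails neutralise their charge and mark active enhancers and promoters. p300 and CBP, paralogous coactivators, place most acetylation at H3K27, the mark measured here, whereas KAT2A (GCN5) and KAT2B (PCAF) act mainly on H3K9 as parts of the SAGA and ATAC complexes. HDAC1 and HDAC2 remove acetyl groups within the NuRD, Sin3 and CoREST complexes, where CoREST also holds KDM1A (LSD1), the demethylase of H3K4me1 and H3K4me2, and HDAC3 works with the corepressors NCoR and SMRT. SIRT1 uses NAD rather than zinc. In the intestinal epithelium HDAC3 is known as a link between commensal bacteria and host gene expression, and bacterial butyrate inhibits the zinc-dependent HDACs.

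All 9 genes were expressed in all 12 RNA libraries. Levels of different genes were compared per length of exon, as CPM per kilobase of exon (RPKM, mean ± SD over 12 libraries). Hdac1 was highest at 28.2 ± 4.29 RPKM, followed by Kat2b at 17.4 ± 2.74 and Hdac3 at 16.9 ± 1.58. Kdm1a (11.4 ± 0.99) and Hdac2 (11.4 ± 1.76) came next, and Ep300 had 8.57 ± 1.84. Kat2a at 5.57 ± 0.82, Sirt1 at 4.22 ± 0.59 and Crebbp at 3.64 ± 0.59 RPKM were lowest, so CBP messenger RNA was below that of its paralog p300. In this order, Hdac1 lay above Kat2b and Hdac3 above Kdm1a with no overlap over the 12 libraries. Every other pair of neighbours overlapped in range. Kat2b exceeded Hdac3 in 7 of 12 libraries and Kdm1a exceeded Hdac2 in 5 of 12, while Hdac2 against Ep300, Ep300 against Kat2a, Kat2a against Sirt1 and Sirt1 against Crebbp kept their order in 10 of 12 libraries each.

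The first question was whether the donor's bacteria or the recipient's diet changed the expression of these enzymes. By edgeR's quasi-likelihood test, 0 of 9 members were called at an adjusted p under 0.05 in any of the 7 comparisons: donor within each diet, diet within each donor, their interaction, and diet and donor averaged over the other. This equals the background, as 0% of the 15893 genes tested were called in any of them. At an unadjusted p under 0.05 the donor comparison took 9.07% of all genes and 0 members in HFD-fed recipients, and 3.72% and 1 member in LFD-fed recipients. The diet comparison took 7.46% and 0 members in HFB recipients and 5.33% and 1 member in LFB recipients, the interaction 11.3% and 1 member, diet averaged over donors 2.94% and 0 members, and donor averaged over diets 2.51% and 0 members. That member was Hdac3 each time. DESeq2's Wald test called 80 of 16470 genes with an adjusted p for donor in HFD-fed recipients and 116 of 13137 for diet in HFB recipients. It called 0 of 19442 for donor in LFD-fed recipients, 9 of 17213 for diet in LFB recipients and 35 of 16842 for the interaction. For diet and donor averaged it called 6 and 4 of 19442. None was a member, but so few of all genes were called that 0 of 9 says little about the members. In simulated counts of 15808 genes for the donor comparison in HFD-fed recipients, 1 of 74 genes changed 1.5-fold, 9 of 68 changed 2-fold and 54 of 58 changed 4-fold were recovered. There, 5 unchanged genes were called as well. These shares were not matched to the level and spread of the members, so they do not give the sensitivity for these 9 genes.

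**Figure D1:**
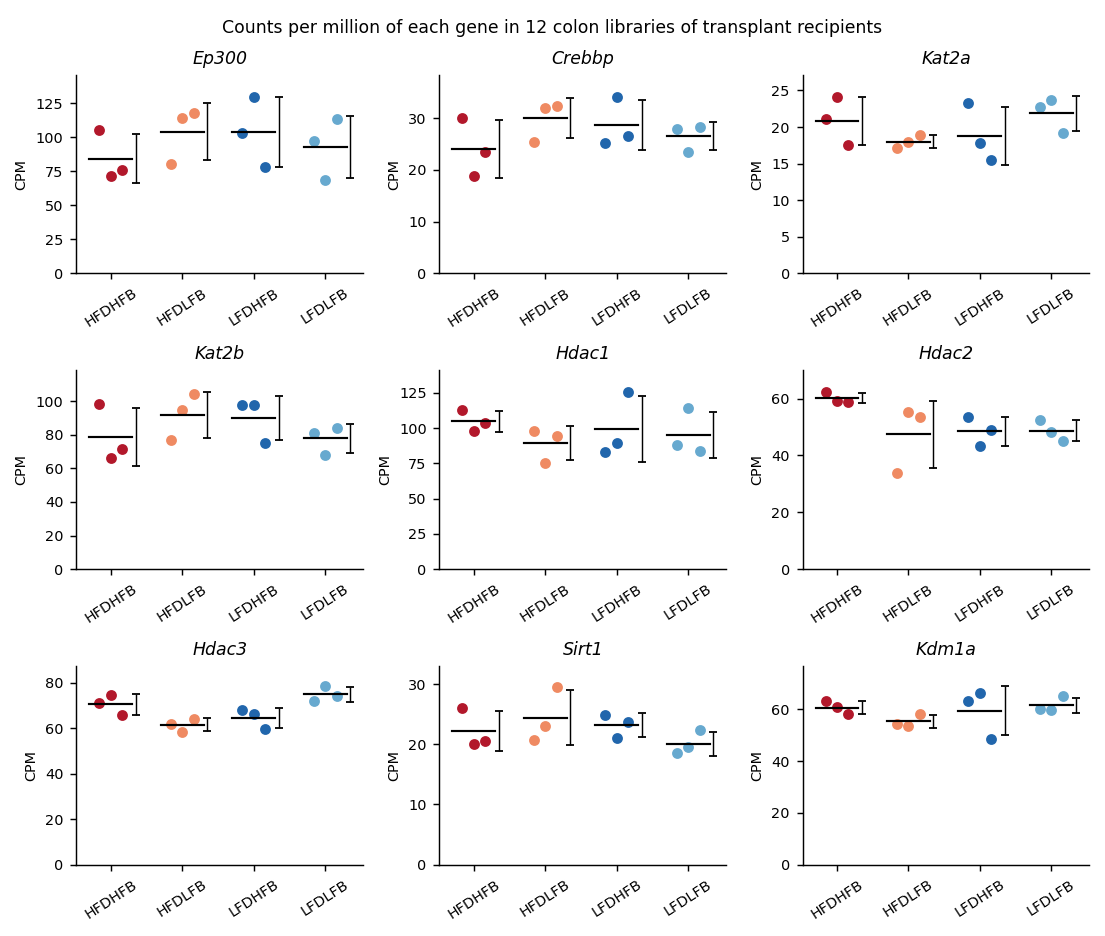
Level in CPM (linear axis from 0) of each of the 9 genes in the 12 recipient libraries, 3 a group; points are libraries, horizontal bars group means and the bracket beside each group ± 1 SD. Over the 4 groups together Hdac3 has the lowest within-group SD of log2 CPM (0.08), although Hdac2 and Kdm1a are tighter in HFDHFB. Its HFDLFB libraries, from 58.4 to 64.2 CPM, lie below LFDLFB, from 72.0 to 78.6 CPM, whereas Ep300 spreads widely inside every group.

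**Figure D2:**
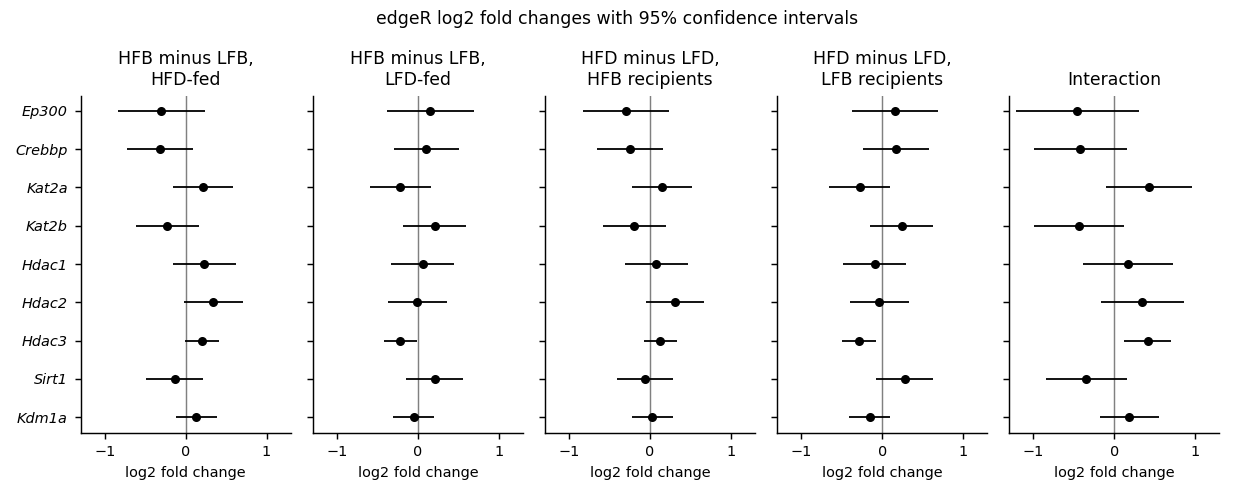
edgeR log2 fold changes of the 9 genes (points) with 95% confidence intervals (lines) for donor within each diet, diet within each donor and the interaction of both. Of the interaction intervals shown, that of Hdac3 (0.12 to 0.71) alone leaves out 0, before adjustment for the number of genes.

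Hdac3, the catalytic subunit of the NCoR and SMRT complexes, had the clearest pattern. It measured 71.2, 74.8 and 65.7 CPM in HFDHFB libraries 1 to 3 and 61.8, 58.4 and 64.2 CPM in HFDLFB. In LFD-fed recipients it measured 67.8, 66.1 and 59.6 CPM with HFB and 72.0, 78.6 and 74.1 CPM with LFB. All HFDHFB libraries thus lay above all HFDLFB libraries, and all LFDHFB libraries lay below all LFDLFB libraries. The log2 difference of HFB minus LFB was 0.20 (SE 0.09, edgeR adjusted p = 0.556) on HFD and -0.22 (SE 0.09, edgeR adjusted p = 0.975) on LFD. The interaction of diet and donor, the difference of these effects, was 0.42 on the log2 scale (SE 0.13, 95% interval 0.12 to 0.71, edgeR adjusted p = 0.386). Of the 9 members it had the lowest unadjusted p in that comparison. Leaving out each library in turn gave interactions from 0.36 to 0.47. The donor difference in LFD-fed recipients no longer passed an unadjusted p of 0.05 when LFDHFB 2, LFDHFB 3, LFDLFB 2 or LFDLFB 3 was left out, its log2 value being -0.16 without LFDHFB 3 and -0.18 without LFDLFB 2. Among LFB recipients the HFD-fed libraries lay below the LFD-fed ones (log2 difference -0.29, SE 0.09, edgeR adjusted p = 0.881).

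The summed epithelial markers had the same order of groups. They ran from 13430 to 15199 CPM in HFDHFB against 10864 to 13052 CPM in HFDLFB, and from 11644 to 14632 CPM in LFDHFB against 13761 to 14766 CPM in LFDLFB. The first pair of groups and the HFDLFB and LFDLFB groups did not overlap, while LFDHFB and LFDLFB did. These sums were scaled by total counts alone, whereas the Hdac3 values were also scaled by TMM factors. Those factors were 1.06 for HFDHFB 2 and 0.96 for HFDLFB 3, and with them the sums of HFDHFB and HFDLFB would overlap. The part of these markers in the Hdac3 values was not tested.

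Groups that did not overlap in log2 CPM were counted against the same count over all genes. For donor in HFD-fed recipients Hdac2 and Hdac3 did not overlap (2 of 9 members, background 13.0%), and for donor in LFD-fed recipients Hdac3 did not (1 of 9, background 10.8%). For diet in HFB recipients this was Hdac2 (1 of 9, background 11%), and for diet in LFB recipients Kat2a, Hdac3 and Kdm1a (3 of 9, background 11.7%). The median log2 difference of the 9 members was 0.13, 0.06, 0.03 and -0.04 in these comparisons in the same order, against medians over all genes of -0.00, 0.02, -0.03 and 0.00.

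Hdac2, the HDAC1 paralog of the same complexes, stood at 62.3, 59.2 and 59.0 CPM in HFDHFB and at 34, 55.2 and 53.4 CPM in HFDLFB. The LFD-fed libraries measured 53.6, 43.3 and 48.8 CPM with HFB and 52.6, 48.4 and 45.2 CPM with LFB. HFDHFB was the highest group, and its lowest library lay above the highest library of each other group. The log2 difference of HFB minus LFB on HFD was 0.34 (SE 0.17, edgeR adjusted p = 0.568). It rested largely on HFDLFB 1, and was 0.15 on the log2 scale without it. That library also had the lowest sum of proliferation markers, 36.6 CPM against 112 to 279 CPM in the other libraries, and the part of this in the Hdac2 value was not tested.

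Hdac1 measured 113, 98.0 and 104 CPM in HFDHFB, 98.0, 75.3 and 94.5 CPM in HFDLFB, 82.9, 89.3 and 126 CPM in LFDHFB, and 88.1, 114 and 83.7 CPM in LFDLFB. All its groups overlapped, and the spread within LFDHFB exceeded every difference between group means. Sirt1 had 26.0, 20.1 and 20.6 CPM in HFDHFB, 20.7, 23.0 and 29.5 CPM in HFDLFB, 25.0, 21.0 and 23.8 CPM in LFDHFB, and 18.5, 19.5 and 22.3 CPM in LFDLFB. Its widest difference between groups that shared a diet or donor was that of diet in LFB recipients, at a log2 difference of 0.28 (SE 0.16, edgeR adjusted p = 0.881). Kdm1a measured 63.2, 60.8 and 58.0 CPM in HFDHFB, 54.2, 53.6 and 58.2 CPM in HFDLFB, 63.3, 66.4 and 48.7 CPM in LFDHFB, and 60.3, 59.6 and 65.0 CPM in LFDLFB. Its HFDLFB libraries lay below all LFDLFB libraries, with a log2 difference of -0.16 (SE 0.12, edgeR adjusted p = 0.883).

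Among the acetyltransferases, Ep300 measured 105, 71.7 and 76.2 CPM in HFDHFB, 80.1, 114 and 118 CPM in HFDLFB, 103, 130 and 78.4 CPM in LFDHFB, and 97.3, 68.6 and 114 CPM in LFDLFB. Its highest library was 1.89-fold above its lowest, and each group held both high and low libraries. The intervals were accordingly wide, from -0.84 to 0.23 for the log2 difference of HFB minus LFB on HFD and from -1.22 to 0.30 for the interaction. Crebbp followed with 30.0, 18.8 and 23.5 CPM in HFDHFB, 25.5, 32.1 and 32.3 CPM in HFDLFB, 25.2, 34.2 and 26.6 CPM in LFDHFB, and 28.0, 23.5 and 28.3 CPM in LFDLFB. Kat2b had 98.4, 66.2 and 71.7 CPM in HFDHFB, 77.3, 94.6 and 104 CPM in HFDLFB, 97.7, 97.7 and 75.0 CPM in LFDHFB, and 81.1, 68.3 and 84.4 CPM in LFDLFB. In none of these genes did any pair of groups that shared a diet or a donor separate, and every interval of a difference held 0.

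The libraries in which Ep300 was low were those with much smooth muscle, neuron and glia marker RNA. HFDHFB 2, HFDHFB 3, HFDLFB 1, LFDHFB 3 and LFDLFB 2 held 4773 to 7129 CPM of summed smooth muscle markers, against 1071 to 2602 CPM in the other libraries. Markers of enteric neurons and glia marked off the same libraries, with 121 to 267 CPM against 34.6 to 68.9 CPM. The same libraries had the lowest Ep300 values (68.6 to 80.1 CPM, against 97.3 to 130 CPM) and the lowest Kat2b values (66.2 to 77.3 CPM, against 81.1 to 104 CPM). Each group held at least 1 of them, and their part in the comparisons was not tested. Kat2a kept another order, with 21.1, 24.0 and 17.5 CPM in HFDHFB, 17.2, 17.9 and 19.0 CPM in HFDLFB, 23.2, 17.8 and 15.5 CPM in LFDHFB, and 22.7, 23.7 and 19.2 CPM in LFDLFB. Its HFDLFB libraries lay below all LFDLFB libraries, with a log2 difference of -0.28 (SE 0.17, edgeR adjusted p = 0.881).

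Hdac3 and Kdm1a were also among the steadier of all genes tested. Their levels in CPM were at percentiles 80 and 77.4, and their spread was not compared with that of genes at like levels. The log2 range of Hdac3 over the 12 libraries was 0.43, at percentile 7.6 of all genes tested, and its SD within groups was 0.08, at percentile 1.4. Kdm1a had a range of 0.45 (percentile 9.0) and a within-group SD of 0.13 (percentile 10.7). The range of Ep300 was 0.92 (percentile 47.2), near the median of all genes at 0.97.

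Over the 12 libraries the members fell into sets that moved together, as a description of libraries that share depth, tissue make-up and groups. Pearson's r of log2 CPM was 0.91 between Ep300 and Kat2b, 0.86 between Ep300 and Crebbp, 0.83 between Crebbp and Kat2b and 0.71 between Kat2b and Sirt1. Kat2a went with Hdac3 (r = 0.81), Hdac3 with Kdm1a (r = 0.68), and Hdac1 ran against Ep300 (r = -0.63). Outside the lists used here, the gene most like each member was Arfgef3 for Ep300 (r = 0.98), Trim56 for Crebbp (r = 0.97), Adsl for Kat2a (r = 0.94), Papola for Kat2b (r = 0.98) and Ptprn2 for Hdac1 (r = 0.97). For Hdac2 it was Rars2 (r = 0.94), for Hdac3 Rabl3 (r = 0.94), for Sirt1 Cul3 (r = 0.93) and for Kdm1a Rchy1 (r = 0.96). Ep300 and Kat2b had 140 and 128 genes with r over 0.9, whereas Kat2a had 6, Hdac3 had 8 and Sirt1 had 4.

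The other genes of the pathway gave no calls. Of 15 other acetyltransferases, 8 other HDACs, 6 other sirtuins, 36 acetyl-lysine readers such as the BET proteins, 22 partners of the KAT2 enzymes, 34 partners of HDAC1, HDAC2, HDAC3 and LSD1, and 13 genes of acetyl-CoA and NAD supply, edgeR called 0 higher and 0 lower in any comparison, and DESeq2 called 0. Over all genes edgeR also called 0, and DESeq2 at most 116 of 13137 in a comparison. At an unadjusted edgeR p under 0.05 the largest counts were those of the interaction, with 5 of 36 readers and 5 of 34 partners of the deacetylases and LSD1, against 11.3% of all genes. The log2 difference of readers was positive in 15 of 36 for HFB minus LFB on HFD (median -0.05, against -0.00 over all genes) and in 29 of 36 for HFB minus LFB on LFD (median 0.14, against 0.02). For HFD minus LFD it was positive in 6 of 36 in HFB recipients (median -0.15, against -0.03) and in 17 of 36 in LFB recipients (median -0.04, against 0.00). Comparisons that share a group, such as those with 29 and 6 of 36, which share LFDHFB, are not independent. Examples with a low unadjusted p, chosen after their values were seen, were Sgf29, a SAGA subunit that binds methylated H3K4, at a log2 difference of 0.71 (SE 0.21, edgeR adjusted p = 0.495) for donor on HFD, Trim28, a corepressor, at 0.48 (edgeR adjusted p = 0.495) for the same comparison, and Mier1, a partner of HDAC1 and HDAC2, at -0.74 (edgeR adjusted p = 0.388) for the interaction.

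The peak lists give positions only, so each gene was described by where peaks lay and how many bases they covered. In mm9 coordinates Ep300 lies on the plus strand at chr15:81416644-81482507, Crebbp on the minus strand at chr16:4084048-4213404, Kat2a on the minus strand at chr11:100566060-100573781 and Kat2b on the plus strand at chr17:53706296-53812046. Hdac1 lies on the minus strand at chr4:129193348-129219890, Hdac2 on the plus strand at chr10:36694350-36721694, Hdac3 on the minus strand at chr18:38096625-38114642, Sirt1 on the minus strand at chr10:62781753-62801783 and Kdm1a on the minus strand at chr4:136106448-136158638. The windows also reach neighbouring genes, such as Dhx58, Hspb9 and Rab5c beside Kat2a, Lck and Marcksl1 beside Hdac1, Herc4 beside Sirt1, Diaph1, Fchsd1 and Rell2 beside Hdac3, and Luzp1 beside Kdm1a. A peak in a window may belong to such a neighbour.

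All 9 starts carried an H3K27ac peak in 23 of 23 libraries, whatever the diet, sex or donor. Of the 15908 annotated positions of all genes tested, 57.3% had such a peak in every library. The peak over the start was widest for Ep300 (median 5.2 kb, percentile 80.1 among the 9110 genes with one in every library), Kat2b (4.8 kb, 76.6) and Hdac1 (4.2 kb, 70.1). It measured 3.2 kb for Crebbp, 2.8 kb for Hdac3 and Sirt1, and 2.2 kb for Hdac2 and Kdm1a. These widths were about the median of 3.0 kb over the same 9110 genes or below it. Kat2a had the narrowest, at 1.6 kb (percentile 7.0).

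H3K4me1, a mark of enhancers and promoter flanks, had the opposite layout. No library of 12 had an H3K4me1 peak over the start of Ep300, Crebbp, Kat2b, Sirt1 or Kdm1a, and peaks lay on both sides in most libraries. Such a peak lay over the start of Hdac2 in 1 of 12 libraries, of Hdac1 in 2, of Hdac3 in 5 and of Kat2a in 10. Over all positions 31.6% had it in no library and 18.7% in all 12. Kat2a, with the narrowest H3K27ac peak, was thus also the start most often covered by H3K4me1.

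**Figure D3:**
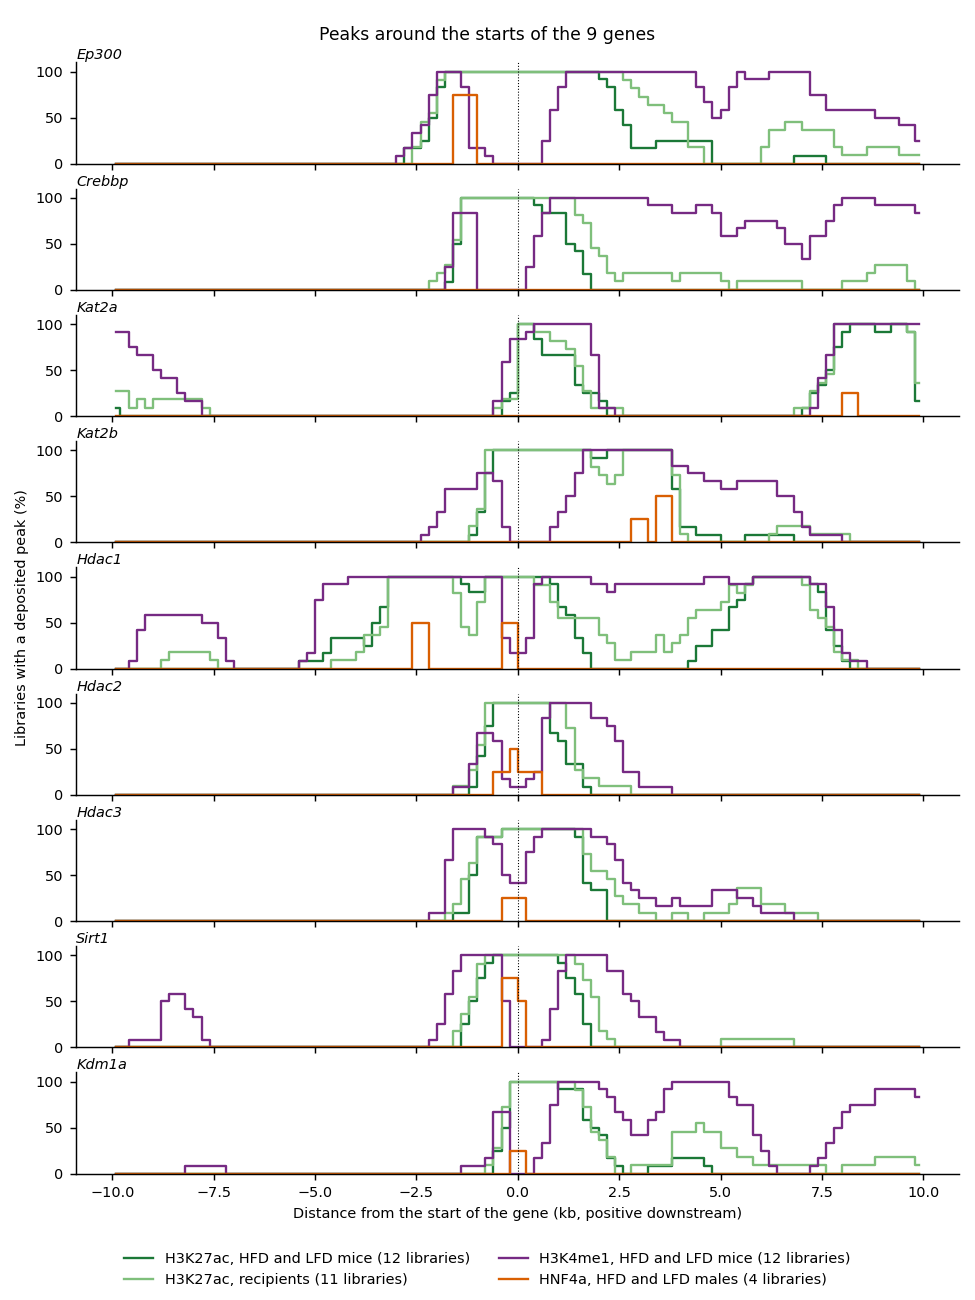
Share of libraries with a deposited peak (vertical axis, %) against distance from the start of each gene (horizontal axis, kb, positive downstream) for H3K27ac in 12 libraries of HFD and LFD mice, H3K27ac in 11 recipient libraries, H3K4me1 in 12 libraries and HNF4a in 4 libraries. At Ep300, Crebbp, Kat2b, Sirt1 and Kdm1a the H3K4me1 line falls to 0 at the start, where the H3K27ac lines stand at 100%.

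The starts also differed in base composition, read from the mm9 genome over 250 bases before and 50 bases from the start on. GC content was 82.0% for Crebbp, 79.0% for Sirt1, 73.0% for Hdac1, 72.3% for Ep300, 69.7% for Hdac2, 64.0% for Hdac3, 61.3% for Kdm1a, 54.3% for Kat2a and 47.0% for Kat2b, against a median of 60.0% over 15866 starts. The observed to expected ratio of CpG was highest for Sirt1 (1.09), Kdm1a (1.08), Crebbp (1.02) and Hdac2 (1.01), and lowest for Kat2b (0.67), the median being 0.72. Kat2b therefore had the second widest H3K27ac peak over the start with the lowest GC content.

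The next question was whether long-term diet changed the histone marks over these genes. The length covered by H3K27ac peaks in each window was compared between diets by a two-sided exact permutation test with libraries permuted within sex, for which 0.005 is the smallest p that 400 permutations allow. The unadjusted p was under 0.05 for 2 of 9 members, Hdac1 and Kat2a, against 4.15% of all windows, and both were higher on HFD, against 3.71% of windows higher. No window of any gene reached an adjusted p under 0.05. Coverage was higher on HFD in 11423 windows and lower in 5655, with a median difference of 198 bp.

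Hdac1 had 13.8, 16.6 and 15.8 kb covered in HFD males against 13.8, 12.6 and 13.2 kb in LFD males, and 15.0, 16.4 and 15.8 kb in HFD females against 15.6, 11 and 14.8 kb in LFD females. The means were 15.6 ± 1.03 kb on HFD and 13.5 ± 1.63 kb on LFD (SD, n = 6 and 6), a difference of 2.07 kb (exact permutation p = 0.025, adjusted p = 1.0), and the diets met at 13.8 kb in males and overlapped in females. Males differed by 2.2 kb and females by 1.93 kb. Split by region, with no test, a region inside the gene at chr4:129201401-129209600 gave 1.04 kb of it and the region over the start 0.43 kb. That inner region measured 4.2, 4.4 and 3.4 kb in HFD males and 2.6, 2.2 and 1.8 kb in LFD males. In females the same region overlapped between diets, with 3.2, 2.6 and 4.0 kb on HFD and 3.2, 2.0 and 3.8 kb on LFD. The call ended without any of HFD female 2, HFD female 3, LFD female 2 or LFD female 3 (exact permutation p = 0.05), and the difference was 1367 bp without LFD female 2.

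Kat2a had 4.8, 4.8 and 4.6 kb covered in HFD males against 3.6, 4.4 and 1.8 kb in LFD males, and 2.8, 3.38 and 3.8 kb in HFD females against 3.2, 2.8 and 2.8 kb in LFD females. The diets separated in males and overlapped in females. The difference was 0.93 kb (4.03 ± 0.84 against 3.10 ± 0.87 kb, SD, n = 6 and 6, exact permutation p = 0.035, adjusted p = 1.0), of which the region over the start gave 0.63 kb. Leaving out 1 library ended the call for HFD male 1 or 2 (exact permutation p = 0.05), LFD male 1 or 3 (0.05), HFD female 2 or 3 (0.07) and LFD female 2 or 3 (0.06), and without LFD male 3 the difference was 0.56 kb.

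Both calls depended on the measure. As a share of all bases covered in each library, the exact permutation p was 0.15 for Hdac1 and 0.14 for Kat2a. None of the other members passed this threshold, with exact permutation p from 0.38 for Kat2b to 1.0 for Hdac2. The Hdac3 window was the most even, with 11.2 to 12.2 kb covered in all 12 libraries. Most of that lay in a region at chr18:38086625-38097000, cut at the window's edge and overlapping Diaph1, with group means of 8.44 to 8.78 kb. The region over the Hdac3 start had group means of 2.87 to 2.93 kb. In Kdm1a the sexes differed in sign. HFD males had 5.0, 8.8 and 9.0 kb, below the 14.6, 9.2 and 9.8 kb of LFD males (difference -3.6 kb), whereas HFD females had 6.0, 11.6 and 7.8 kb against 7.8, 7.0 and 4.4 kb (difference 2.07 kb). The pooled difference was -0.77 kb (exact permutation p = 0.67), and that between the sexes was not tested. For H3K4me1, 0 of 9 members had an unadjusted p under 0.05, against 3.42% of all windows. The lowest p belonged to Hdac1, where H3K4me1 covered 25.5 ± 2.02 kb on HFD and 27.9 ± 2.25 kb on LFD (SD, n = 6 and 6, exact permutation p = 0.09).

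**Figure D4:**
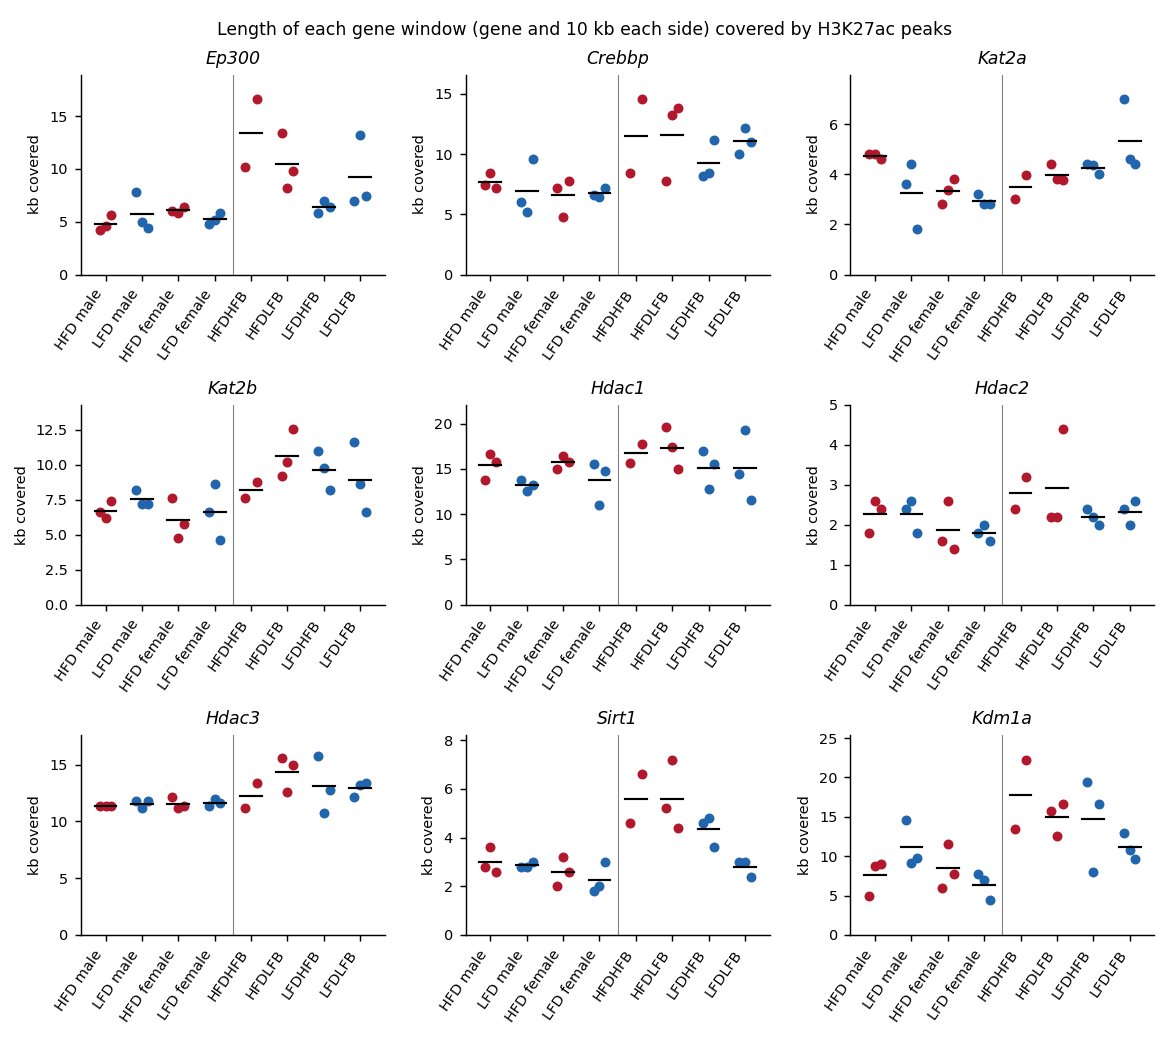
Length of each gene window covered by H3K27ac peaks (kb, linear axis from 0) in 12 libraries of HFD and LFD mice (left of the line) and 11 recipient libraries (right of it); points are libraries, red on HFD and blue on LFD, and bars are group means. Kat2a is higher on HFD in the males that were not recipients (4.6 to 4.8 against 1.8 to 4.4 kb) and lower on HFD among recipients (3.0 to 4.4 against 4.0 to 7.0 kb).

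In the recipients the donor's bacteria gave 0 of 9 members an unadjusted exact permutation p under 0.05, against 2.79% of all windows, with libraries permuted within diet and 0.01 as the smallest p that 200 permutations allow. The recipient's diet gave 2 of 9, against 12.5% of all windows. Sirt1 was higher on HFD (1 of 9, against 12% of windows higher) and Kat2a lower (1 of 9, against 0.493% lower). The peaks covered more bases on HFD in 14333 windows and fewer in 3442, with a median difference of 583 bp, so a higher value on HFD was the common case here and a lower value was not. No window reached an adjusted p under 0.05.

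Over Sirt1, the H3K27ac peaks covered 4.6 and 6.6 kb in HFDHFB, 5.2, 7.2 and 4.4 kb in HFDLFB, 4.6, 4.8 and 3.6 kb in LFDHFB, and 3.0, 3.0 and 2.4 kb in LFDLFB. The diets separated within LFB recipients and overlapped at 4.6 to 4.8 kb within HFB recipients. The mean was 5.60 ± 1.24 kb on HFD (n = 5) and 3.57 ± 0.96 kb on LFD (n = 6), with a difference averaged over donors of 2.03 kb (exact permutation p = 0.03, adjusted p = 0.304). Of this, 1.36 kb came from a region at chr10:62778401-62782400, at the 3′ end of Sirt1 and also of Herc4, which is read from the other strand (chr10:62706545-62780629). It held a peak in 2 of 2 HFDHFB libraries, in 1 of 3 HFDLFB libraries, and in 0 of 6 LFD-fed recipients. The call ended when any of HFDHFB 2 (exact permutation p = 0.075), an HFDLFB library (0.06), LFDHFB 3 (0.05) or an LFDLFB library (0.06) was left out.

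Over Kat2a, the recipients had 3.0 and 3.98 kb in HFDHFB, 4.4, 3.8 and 3.78 kb in HFDLFB, 4.4, 4.38 and 4.0 kb in LFDHFB, and 7.0, 4.6 and 4.4 kb in LFDLFB. The difference averaged over donors was -1.05 kb (3.79 ± 0.51 kb, n = 5, against 4.80 ± 1.1 kb, n = 6, exact permutation p = 0.02, adjusted p = 0.282), opposite in sign to that of the mice that were not recipients, and the difference between these effects was not tested. By the study's methods, those mice came from another supplier and ate the diets for longer, and they included females. Without LFDLFB 1 the difference in recipients was -0.64 kb (exact permutation p = 0.04), and without either HFDHFB library the call ended (exact permutation p = 0.05). A region centred at -8.81 kb from the start, inside Rab5c and cut at the window's edge, gave -0.47 kb. The region over the Kat2a start gave -0.34 kb, and one at chr11:100563601-100567000, which overlaps both Kat2a and Dhx58, gave -0.26 kb. Within 5 kb of the gene the difference was -583 bp (exact permutation p = 0.16). Of the other members, Ep300 had 10.2 and 16.6 kb in HFDHFB, 13.4, 8.2 and 9.8 kb in HFDLFB, 5.8, 7.0 and 6.4 kb in LFDHFB, and 7.0, 13.2 and 7.4 kb in LFDLFB, with an averaged difference of 4.13 kb (exact permutation p = 0.07).

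Single regions were also scored by presence in every library of a group and absence in the other. None of the member regions did so for diet in males (H3K27ac 0 of 33, background 0.648%; H3K4me1 0 of 48, background 0.550%) or females (H3K27ac 0 of 32, background 0.901%; H3K4me1 0 of 46, background 0.680%). Nor did any for donor on HFD (0 of 61, background 1.68%), donor on LFD (0 of 61, background 0.674%) or diet in LFB recipients (0 of 64, background 1.19%). For diet in HFB recipients 1 of 59 did, against 3.08% of all regions, namely the 3′ end of Sirt1 at chr10:62780001-62782000, present in both HFDHFB libraries and no LFDHFB library.

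HNF4a, a nuclear receptor of the gut epithelium, was mapped in males at 23 merged sites in the windows of these genes. There were 5 and 9 peaks in the HFD libraries and 15 and 10 in the LFD libraries, so these counts did not overlap between diets, and no test was run on 2 libraries a diet. The number of members with a site did overlap, at 3 and 7 on HFD and 8 and 5 on LFD. Over all genes the shares of positions with a site were 56.9% and 58.0% on HFD and 64.4% and 56.9% on LFD, and the library with 15 peaks was also that with the most peaks in all (27766, against 21308 to 22640 in the others). Of the 23 member sites 1 was found in all 4 libraries, or 4.35%, against 17.2% of all HNF4a regions. Sites found in both libraries of a diet and neither of the other were 2 of 23, against 5.03% of all regions, and both were found on LFD. They lay just upstream of the Hdac1 start and in an intron of Kat2b.

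The sequences below, all read on the plus strand of mm9, are those of the shared Hdac1 site, of the sites found on LFD, and of the merged site at the Sirt1 start, found in 3 of 4 libraries, in 2 of which the peak covered the start itself. Capitals mark a match to the HNF4 letters searched (CAAAGTCCA, CAAAGGTCA, CAAAGTTCA or CAAAGGCCA, on either strand). The shared Hdac1 site lies 13.54 kb downstream of the start, inside the inner H3K27ac region above and over an exon of Hdac1 in GENCODE vM1. The Hdac1 site found on LFD overlaps a first exon of Hdac1 in GENCODE vM1 and is shown over 278 of its 313 bases. The Sirt1 site is shown over 239 of 266, and the bases shown of both sites lie upstream of the gene's start. The Kat2b site, 3.56 kb downstream of its start, is shown over 300 of 304 bases.
Hdac1, all 4 libraries, chr4:129206214-129206479: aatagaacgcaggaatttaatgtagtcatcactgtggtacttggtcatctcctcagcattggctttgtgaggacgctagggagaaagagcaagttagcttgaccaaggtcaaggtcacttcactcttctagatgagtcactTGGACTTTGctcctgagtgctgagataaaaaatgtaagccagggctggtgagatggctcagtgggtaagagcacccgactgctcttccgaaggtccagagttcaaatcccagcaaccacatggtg
Hdac1, both LFD libraries, chr4:129219958-129220235: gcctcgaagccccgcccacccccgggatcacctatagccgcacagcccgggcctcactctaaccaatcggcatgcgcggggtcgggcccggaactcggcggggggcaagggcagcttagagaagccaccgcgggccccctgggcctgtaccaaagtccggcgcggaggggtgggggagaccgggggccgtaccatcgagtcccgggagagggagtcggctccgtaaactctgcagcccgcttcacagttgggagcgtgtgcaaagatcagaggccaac
Kat2b, both LFD libraries, chr17:53709705-53710004: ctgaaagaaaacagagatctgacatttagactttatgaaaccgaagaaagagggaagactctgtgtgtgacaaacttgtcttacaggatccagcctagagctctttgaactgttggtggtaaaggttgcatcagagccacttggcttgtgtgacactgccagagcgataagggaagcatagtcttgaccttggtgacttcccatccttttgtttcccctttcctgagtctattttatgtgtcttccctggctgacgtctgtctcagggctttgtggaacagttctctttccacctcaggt
Sirt1, 3 of 4 libraries, chr10:62801799-62802037: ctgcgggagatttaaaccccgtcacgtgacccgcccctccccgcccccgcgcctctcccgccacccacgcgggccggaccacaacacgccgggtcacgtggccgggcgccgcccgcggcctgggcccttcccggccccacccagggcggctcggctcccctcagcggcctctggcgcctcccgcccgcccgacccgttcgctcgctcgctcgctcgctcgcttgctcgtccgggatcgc

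The shared Hdac1 site held TGGACTTTG, which is CAAAGTCCA on the minus strand, and was the only member site of 23 with any of these letters (4.3%). They occurred in 6339 of 49524 HNF4a sites over the genome (12.8%) and in 261 of 15866 gene starts (1.6%). The site at the Hdac1 start and that at the Sirt1 start were rich in G and C (69.1% and 78.2%), whereas the shared Hdac1 site and the Kat2b site had 48.1% and 46.0%. Of the remaining sites, those of Ep300 at chr15:81415206-81415478, of Kat2b at chr17:53726471-53726752 and of Kdm1a at chr4:136138906-136139171 were found in 3 of 4 libraries.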

How the data were processed

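RNA was measured in 12 colon libraries of transplant recipients and histone marks and HNF4a in 39 peak lists, out of 84 samples. The 33 input libraries were not analysed here. According to the study's methods, the authors aligned RNA reads to mm9 with STAR and deposited raw counts per gene from featureCounts. The submitters' processing notes list STAR 2.5, featureCounts 1.5.0-p1, Bowtie 0.12.8, Picard 1.110, SICER and HOMER. The deposited peak lists, called per library, gave positions of islands (SICER, histone marks) or peaks (HOMER, HNF4a) with no score or height, so the depth behind a peak is not known here and a wider or missing peak can come from depth.

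Groups came from the sample labels. The 9 members, the lists of other pathway genes and the markers were chosen with earlier results of these data known. Counts were scaled by TMM and tested in 1 fit of all 4 groups (R 4.3.3, edgeR 4.0.16, filterByExpr, Benjamini-Hochberg adjustment over the 15893 genes tested), with DESeq2 1.42.0 as the alternative. CPM and RPKM of genes were computed from the counts with TMM scaling. RPKM used exon lengths of GENCODE vM1, and log2 CPM used a prior count of 2. Marker sums used CPM by total counts, without TMM. The test was tried on simulated counts. Covered bases in each gene window were compared by exact permutation within sex, diet or donor, over all windows covered in any library (Python 3.11.15). No column of values per sample was left unused. Genes named were the members, the gene most like each member, and regions in all libraries of a group and none of the other. Others are named as chosen after their values were seen. Alternatives were size factors of DESeq2, no filter on low counts, windows of 5 and 50 kb, the number of peaks, the share of covered bases, a replicate block and leaving out each library. Overlapping peaks were merged from 1 shared base on.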

Additional observations from a re-analysis of the deposited data

Results flagged for a closer look

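Hdac3 expression was marked because the donor effect had opposite directions in the recipient diets. HFB libraries lay above LFB libraries on HFD and below them on LFD, and the interaction of diet and donor was 0.42 on the log2 scale (SE 0.13). The edgeR adjusted p over all genes tested was 0.386, so the difference did not pass the threshold. Of all genes tested, 13.0% did not overlap between donors on HFD and 10.8% on LFD. An unadjusted edgeR p under 0.05 for the interaction was found in 11.3%. How many genes separated in opposite directions was not counted, so the pattern is not shown to be particular to Hdac3. No group held more than 3 libraries of an assay, so single libraries were not tested for standing apart.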

How the results depend on the processing

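Expression calls of members were 0 in all 112 alternatives, among them DESeq2 size factors, DESeq2's Wald test, no filter on low counts, the replicate block and each library left out. All alternatives but DESeq2's Wald test called 0 of all genes, so 0 members was the only outcome there. The Wald test called 0 to 116 genes in a comparison. Of the fold changes recomputed, 953 kept their sign and 55, none of them called, changed it, each with a library left out.

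Calls from H3K27ac coverage changed with the processing, and percentages here give the share of all windows called in a setting. For diet in HFD and LFD mice, 2 members were called as reported (4.15%), 0 with windows of 5 kb (3.86%) and 1 with 50 kb (5.24%). There were 0 by number of peaks (0.941%), 0 by share of covered bases (5.04%), and 0 to 2 with a library left out (3.08% to 7.19%). For diet in recipients the 2 calls (12.5%) became 1 with 5 kb (11.4%), 1 with 50 kb (16.6%) and 1 by number of peaks (2.93%). With a library left out they were 0 to 2 (4.78% to 12.8%). Kat2a in recipients changed sign with windows of 50 kb (394 bp, exact permutation p = 0.72) and by number of peaks (0.083, exact permutation p = 1.0). For donor in recipients the 0 calls (2.79%) became 1 by number of peaks (0.953%) and 1 by share of covered bases (3.93%). For H3K4me1 they were 0 to 1 with a library left out (2.92% to 3.57%). The HNF4a difference of -5.5 sites per library was -4.0 with 5 kb and -8.0 to -3.0 with a library left out. The cause was not tested. Requiring 100 shared bases gave 24 rather than 23 merged sites.

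Replicate numbers were shared between groups. Over 18 pairs of RNA libraries with the same number, deviations from group means correlated at -0.606 to 0.406 (median -0.272, against 0.218 for other numbers), and 1 of 12 libraries correlated best with its own number, so the numbers were not taken to pair the samples. In H3K27ac coverage of HFD and LFD mice 6 such pairs correlated at -0.521 to 0.176, with 1 over 0.1, and in H3K4me1 at -0.14 to 0.158, with 2 over 0.1. With the replicate block 0 members were called for expression, where 0 of all genes were called. For H3K27ac by diet 0 members were called, against 1.96% of all windows, and both calls ended (exact permutation p = 0.125 for Hdac1 and 0.0938 for Kat2a). For H3K4me1 0 members were called, against 1.97% of all windows.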
